A study of Mus musculus with 23 samples.

Results

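The left ventricle of adult FVB mice that had breathed nicotine aerosol from an e-cigarette was compared with that of mice kept in filtered air, in 8 of the 23 sequenced libraries of the series. These are all 4 nicotine and all 4 air libraries of the mice whose exposure started at 3 months of age, chosen by their labels alone, and every gene was compared. RNA was from left ventricle tissue frozen in liquid nitrogen. Exposure lasted 3 months, for 4 hours on each of 5 days a week, so that both groups were the same age and strain and differed in what was inhaled, nicotine in an e-cigarette vehicle or filtered air. The vehicle without nicotine was given in 4 further libraries of this start, used here as a second reference, and the 8 nicotine and air libraries of a 3-week start were used to ask whether the effect depended on starting age. Between the starts, the age when exposure began, the age when it ended and any batch cannot be told apart. The labels do not say that libraries come from separate animals, so the p-values rest on a spread between libraries that may be technical in part. Libraries keep the replicate numbers of their labels, and air has numbers 1, 2, 4 and 5.

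Nicotine acts on nicotinic acetylcholine receptors, ligand-gated ion channels that sit mainly on autonomic neurons and on the catecholamine-releasing cells of the adrenal gland. The heart itself receives the resulting noradrenaline and adrenaline through adrenergic receptors, which raise rate, contractility and calcium entry in the working myocytes. Stretch, catecholamines and injury each switch on well-known transcript programmes in the ventricle, among them immediate early transcription factors, natriuretic peptides and stress kinases, and remodelling of potassium and sodium channels changes how the myocyte repolarises.

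The libraries held 14596003 to 17821550 counts in air and 13551910 to 14829988 in nicotine (exact two-sided permutation p = 0.0857, with 0.0286 the smallest this design allows). The rank correlation of expression with gene length was 0.235 to 0.262 in air and 0.22 to 0.263 in nicotine, and 0.206 to 0.219 in the 4 vehicle libraries, below both. Genes that do not code for protein took 1.3 to 1.52% of counts in air, 1.27 to 1.37% in nicotine and 1.55 to 1.72% in vehicle. In the vehicle group an effect of the aerosol and any batch cannot be told apart. Mitochondrial transcripts took 8.48 to 9.39% of counts in air and 8.97 to 10.3% in nicotine (exact permutation p = 0.114). Ventricular cardiomyocyte markers summed to 70169 to 78582 CPM (counts-per-million units, scaled for library size) in air and to 69972.5 to 77907 CPM in nicotine, as the tissue label has it. The other 6 lung epithelium markers, surfactant genes among them, had at most 9 counts, and Ager, the only lung marker that was tested, stayed under 1 CPM in these 8 libraries.

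Myom2, Slc38a2, Etv5 and Fgf6 were higher in nicotine, by 1.43 to 2.33 times, and Ptgds, Kcnh2 and Fign were lower, at 0.535 to 0.705 of the air level. They encode proteins of the contractile lattice, amino acid uptake, growth factor signalling, prostaglandin synthesis, repolarisation and microtubule severing. In all 7, every nicotine library lay beyond every air library. Over all genes, 1.72% had all nicotine above all air and 2.15% all below. The 7 were called on these same libraries, so the lack of overlap is no further support. Of 14526 genes tested, 7 (0.0482%) passed an adjusted p of 0.05, 4 higher (0.0275%) and 3 lower (0.0207%), and 921 (6.34%) had an unadjusted p under 0.05.

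**Figure D1:**
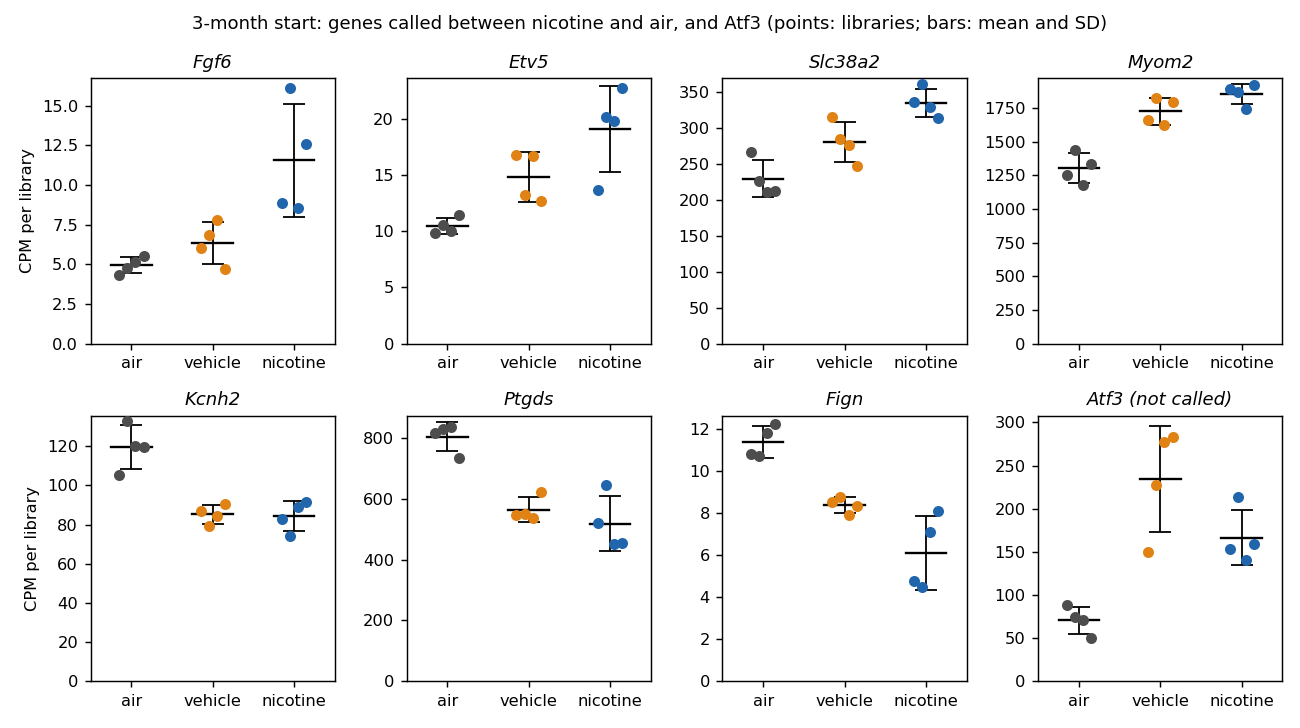
Level in CPM (counts-per-million units, vertical axis from 0) of the 7 genes called between nicotine and air, and of Atf3, which was not called, in each library of the 3-month start. Points are libraries and bars give the mean and SD of 4 libraries per group. In all 8 panels the nicotine and air points do not overlap, and in Kcnh2 and Ptgds the vehicle points lie with the nicotine points.

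Myom2 encodes M-protein, a myomesin-family protein of the M-band, the protein bridge that holds thick filaments in register at the centre of the sarcomere. It stood at 1252, 1436, 1177 and 1335 CPM in air and at 1886, 1867, 1740.3 and 1918 CPM in nicotine. No air library came near the lowest nicotine library, and the log2 fold change was 0.51 ± 0.07 (SE, n = 4 per group, edgeR adjusted p = 0.00951). Slc38a2 encodes a sodium-coupled transporter of small neutral amino acids that cells raise when amino acids are short. It was at 266, 226, 211 and 213 CPM in air against 336, 361, 329.6 and 314 CPM in nicotine, with air library 1 the highest of its group (0.55 ± 0.08 log2, adjusted p = 0.0283).

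Etv5 and Fgf6 belong to growth factor signalling. Etv5 is a transcription factor that receptor tyrosine kinases induce through the kinase ERK. Its level was 9.86, 10.5, 9.99 and 11.4 CPM in air and 13.7, 20.2, 19.8 and 22.8 CPM in nicotine, where library 1 was the lowest (0.87 ± 0.14 log2, adjusted p = 0.0283). Fgf6 is a secreted fibroblast growth factor known from skeletal muscle. It rose from 4.35, 4.74, 5.15 and 5.53 CPM to 8.88, 16.1, 8.58 and 12.6 CPM, and nicotine library 2 held the most (1.22 ± 0.20 log2, adjusted p = 0.0356).

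Among the lower genes, Kcnh2 encodes the channel of the rapid delayed rectifier potassium current, which ends the action potential in many mammals. Its level was 106, 133, 120.2 and 119.8 CPM in air and 83.0, 74.4, 88.7 and 91.3 CPM in nicotine (-0.50 ± 0.08 log2, adjusted p = 0.0283). Ptgds makes prostaglandin D2 from prostaglandin H2 and also carries lipids outside the cell. It fell from 816, 831, 838 and 735 CPM to 522, 645, 451 and 454 CPM (-0.64 ± 0.10 log2, adjusted p = 0.0283), with nicotine library 2 nearest to air. Fign encodes fidgetin, an enzyme that cuts microtubules. It was at 10.8, 10.7, 11.8 and 12.2 CPM in air and at 4.74, 4.45, 7.09 and 8.08 CPM in nicotine (-0.90 ± 0.15 log2, adjusted p = 0.0401).

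How many genes pass depends on the fit. edgeR called 0 of 15500 genes when the 3-week libraries shared the estimate of spread (408 at an unadjusted p under 0.05). It called 3 in the 8 compared libraries alone, and DESeq2 called 41 in the 12 libraries of this start. Leaving out a single library gave 4, 1, 1 and 3 calls for air 1, 2, 4 and 5. For nicotine 1, 2, 3 and 4 it gave 5, 2, 17 and 3 calls, with Myom2 called each time in both groups. Of 18 alternative fits, 2 lost the call of Myom2, 7 that of Slc38a2 and 9 that of Ptgds. The calls of Kcnh2, Etv5, Fgf6 and Fign were each lost in 10 of the 18. The authors' deposited table for this comparison, which draws on the same 8 libraries, calls 43 of 13447 genes (0.32%) at the same threshold, of which 30 were higher and 13 lower, and all 7 genes above are among them.

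The same genes were read in the vehicle libraries, which share the air libraries with the nicotine comparison. Against air, where 18.7% of genes were called in the same fit, vehicle minus air was 0.41 ± 0.07 log2 for Myom2 (adjusted p = 0.00138), 0.51 ± 0.14 for Etv5 (0.0192), 0.29 ± 0.08 for Slc38a2 (0.0225), -0.51 ± 0.10 for Ptgds (0.00308), -0.49 ± 0.08 for Kcnh2 (0.00138) and -0.44 ± 0.15 for Fign (0.0446). Fgf6 was at 6.04, 6.83, 7.81 and 4.72 CPM in vehicle, 0.36 ± 0.20 log2 above air (adjusted p = 0.238). Nicotine minus vehicle, in which 16.6% of genes were called, was 0.86 ± 0.19 log2 for Fgf6 (adjusted p = 0.00785) and 0.26 ± 0.08 log2 for Slc38a2 (adjusted p = 0.045). The Slc38a2 call over vehicle and the Fign call of vehicle against air were each lost in 8 of 16 alternatives, the first without any 1 of the 4 nicotine libraries (lowest value over all alternatives 0.17) and the second without any 1 of the 4 air libraries. Kcnh2 averaged 85.2 ± 4.87 CPM (SD, n = 4) in vehicle and 84.4 ± 7.49 CPM in nicotine, and the difference of -0.01 ± 0.08 log2 was within its error.

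Beyond the called genes, 8 named higher genes had the next smallest p, and none of them passed. Phlda1, a nuclear protein induced by growth factors and stress, was at 28.1, 24.8, 21.6 and 17.7 CPM in air and 45.9, 48.3, 36.9 and 47.1 CPM in nicotine (0.95 ± 0.16 log2, adjusted p = 0.0796). Abra, an actin-binding protein of striated muscle, was at 126, 114, 107 and 81.7 CPM against 206, 273, 154 and 213 CPM (0.98 ± 0.16 log2, adjusted p = 0.0796). The groups did not overlap in either gene. Otud1, a deubiquitinase, had 120.3, 75.8, 78.7 and 76.1 CPM in air and 165, 229, 149 and 180.0 CPM in nicotine (1.04 ± 0.17 log2, adjusted p = 0.0796), so that air library 1 was far above the other air libraries and still below nicotine.

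The actin-bundling protein Xirp1, the growth factor Hbegf, which is an EGF receptor ligand, and Sat1, the rate-limiting enzyme of polyamine catabolism, were 0.63 ± 0.11, 0.69 ± 0.13 and 0.35 ± 0.07 log2 higher (adjusted p = 0.0796 for each). Sat1 was at 59.5 to 69.5 CPM in air, 79.0 to 84.4 CPM in nicotine and 104 to 123 CPM in vehicle, which gives an order of air, nicotine and vehicle with no overlap. Ppfia1, a liprin of focal adhesions, and Cpxm2, a carboxypeptidase-like secreted protein, were 0.44 and 0.47 log2 higher (adjusted p = 0.0976). Cpxm2 groups overlapped, since nicotine library 3 (104 CPM) lay below air library 5 (106 CPM).

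On the lower side, Tcap, the titin cap of the Z-disc, was at 2225, 2138, 2495 and 2116 CPM in air and 1887, 1706, 1564 and 1723 CPM in nicotine (-0.38 ± 0.08 log2, adjusted p = 0.0976). In vehicle Tcap was at 2423 to 2923 CPM, above all nicotine libraries and overlapping air. Crhr2, the receptor of urocortins on cardiac myocytes and vessels, was at 30.3 to 31.8 CPM in air and 20.9 to 25.6 CPM in nicotine (-0.41 ± 0.08 log2, adjusted p = 0.0976). Sh3rf2, Rcor2, Vwc2, Pik3r1, Amotl2, Ncs1 and Slco2a1, whose products range from a transcriptional corepressor (Rcor2) to a regulatory subunit of PI3-kinase (Pik3r1) and a prostaglandin transporter (Slco2a1), had log2 fold changes of -0.43, -0.58, -0.86, -0.48, -0.31, -0.37 and -0.85 (adjusted p = 0.0976 to 0.22). All 7 had groups that did not overlap, against 2.15% of genes with all nicotine below all air and 1.72% with all above. They were picked for small p, so this is no further support.

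**Figure D2:**
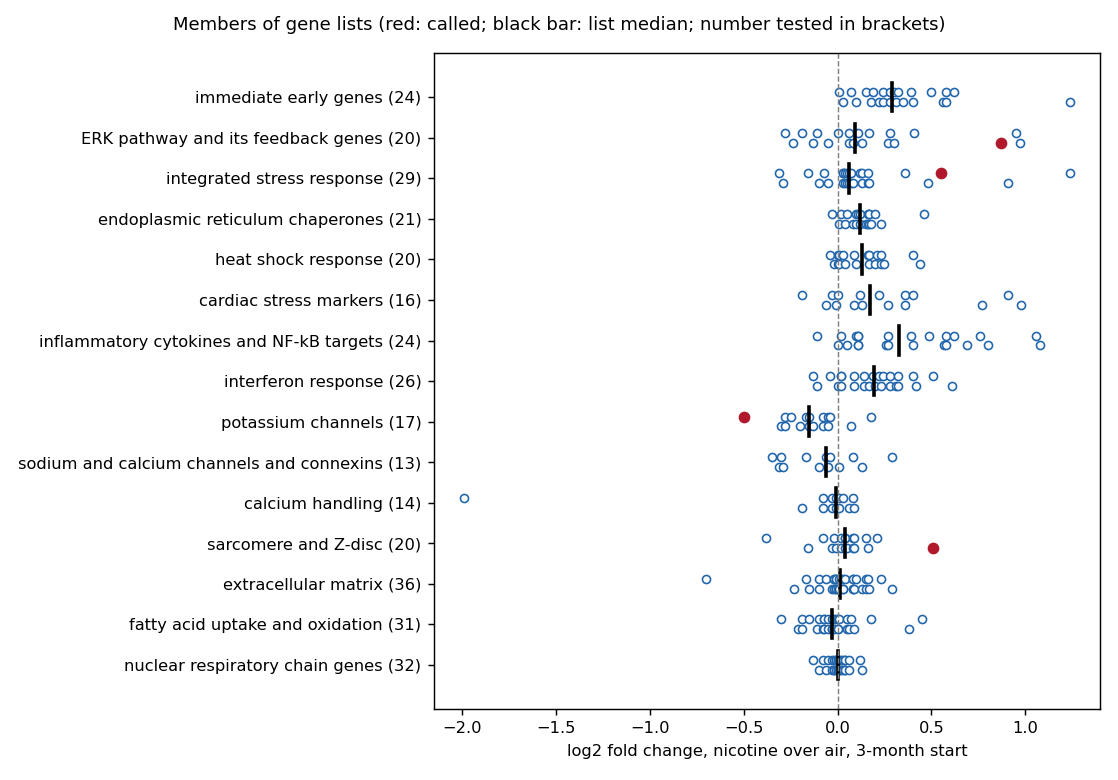
Log2 fold change of nicotine over air (horizontal axis) for each tested member of 15 gene lists, with the number tested in brackets. Filled red points are called, open points are not, and black bars are list medians, which lie above 0 for immediate early genes (0.29) and cytokines and NF-kB targets (0.33) and below 0 for potassium channels (-0.15).

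Genes of the ERK route were read from ligand to feedback. Of 20 measured, 1 was called, Etv5, 14 had a log2 fold change above 0 (49.6% of all genes did), and the median was 0.09 (0.04 without nicotine library 3). At an unadjusted p under 0.05 there were 4 higher (3.06% of all genes were) and 1 lower (3.28%). These were Etv5, Phlda1, the ERK phosphatase Dusp4 and Ier3 on the higher side and the small GTPase Rit1 on the lower side. Here and below, members named for an unadjusted p under 0.05 beyond the smallest of their list were chosen after their values were seen. Dusp4 was at 5.78, 6.999, 3.04 and 5.16 CPM in air and 11.1, 11.7, 8.44 and 9.89 CPM in nicotine (0.97 ± 0.27 log2, adjusted p = 0.403). Vehicle stood at 4.96 ± 2.15 CPM, with air rather than nicotine. The ERK kinase gene Mapk3 differed by -0.05 log2.

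Immediate early genes are switched on within minutes of a stimulus, and many of them encode transcription factors. All 24 measured had a log2 fold change above 0, with a median of 0.29 where the median of all genes was 0, and none was called. Those with an unadjusted p under 0.05 were Atf3, Ier5, Fosl2, Btg2 and Nr4a2, with log2 fold changes of 1.24, 0.39, 0.35, 0.62 and 0.56. The mean log2 CPM of the list was 6.61, 6.28, 6.2 and 6.27 in air and 6.61, 6.68, 6.59 and 6.77 in nicotine. Air library 1 thus stood with the nicotine libraries. In vehicle the list lay at 6.73 to 7.08, all 24 members were above air, and the median was 0.57, with the air libraries in common.

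Atf3, a stress-induced transcription factor that is on this list and on that of the integrated stress response, had the smallest p of the authors' deposited table. It was at 87.8, 73.8, 70.6 and 49.3 CPM in air, 153, 213, 140.0 and 159 CPM in nicotine and 150.1, 227, 277 and 283 CPM in vehicle. Both aerosol groups lay above air without overlap. The log2 fold change over air was 1.24 ± 0.23 for nicotine (adjusted p = 0.162 by edgeR, and 1.33e-10 in the authors' deposited table) and 1.73 ± 0.23 for vehicle (adjusted p = 0.00157).

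In the integrated stress response, the programme that slows translation and raises amino acid transport through ATF4, 1 of 29 measured genes was called, Slc38a2. Atf3 and the secreted stress factor Gdf15 also had an unadjusted p under 0.05. Gdf15 was at 17.3, 9.08, 11.2 and 8.91 CPM in air and 26.5, 27.2, 15.1 and 18.3 CPM in nicotine, so that the groups overlapped (0.91 ± 0.26 log2, adjusted p = 0.454). The other transporters and synthetic enzymes of the list stayed near 0. Atf4 itself was 0.12 log2 higher, the enzyme Asns 0.03, and the median was 0.06 with 23 of 29 above 0. Without air library 4 the median was 0.12, without nicotine library 4 it was 0.10, and without nicotine library 3 only 18 of 29 were above 0.

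Endoplasmic reticulum chaperones fold secreted and membrane proteins, and many are raised through a promoter sequence called the endoplasmic reticulum stress element. Of 21 measured, 20 were above air (49.6% of all genes were) and none was called. At an unadjusted p under 0.05 there were 6, all higher (3.06% of all genes were). The changes were small, with a median of 0.12 log2. The mean log2 CPM of the list was 6.05, 6.04, 6.04 and 5.99 in air, 6.17, 6.21, 6.14 and 6.14 in nicotine, and 6.05, 5.96, 6.03 and 5.99 in vehicle. Nicotine thus lay above both other groups in every library. Pdia6, a disulfide isomerase, was at 61.2 to 72.7 CPM in air and 69.8 to 81.0 CPM in nicotine (0.18 ± 0.07 log2, adjusted p = 0.642), and Sdf2l1, a component of the chaperone complex, at 3.01 to 4.09 against 4.60 to 5.21 CPM (0.46 ± 0.17 log2, adjusted p = 0.656). Hsp90b1, the chaperone GRP94, was at 330.2, 293, 370.1 and 291 CPM in air and 351, 358, 366 and 369 CPM in nicotine (0.17 ± 0.07 log2, adjusted p = 0.754).

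The promoters of these chaperones are shown because a known stress element lies in many of them and the list stood above air in every nicotine library. They are the 250 bases before the start of the gene, 5′ to 3′ on the gene's strand, from RefSeq on GRCm38.p6. Capitals mark matches to the stress element, which is CCAAT and CCACG with any 9 bases between them, or, in Atf3, to TGATGNAA, the C/EBP-ATF element of the integrated stress response, on either strand. Pdia6 lies at chr12:17266339-17266588 on the + strand, Hsp90b1 at chr10:86705445-86705694 on the - strand, Hspa5 at chr2:34771840-34772089 on the + strand and Atf3 at chr1:191183334-191183583 on the - strand.
Pdia6: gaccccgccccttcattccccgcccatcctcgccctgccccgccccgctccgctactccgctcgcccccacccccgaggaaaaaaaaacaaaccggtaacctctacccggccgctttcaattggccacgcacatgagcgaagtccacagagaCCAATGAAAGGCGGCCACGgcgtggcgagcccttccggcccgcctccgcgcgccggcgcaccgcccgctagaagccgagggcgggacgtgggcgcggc
Hsp90b1: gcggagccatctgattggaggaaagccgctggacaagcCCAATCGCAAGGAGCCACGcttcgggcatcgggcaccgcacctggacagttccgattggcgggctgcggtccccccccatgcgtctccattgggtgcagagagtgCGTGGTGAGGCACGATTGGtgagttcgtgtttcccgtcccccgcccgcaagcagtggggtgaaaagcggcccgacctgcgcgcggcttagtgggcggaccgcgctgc
Hspa5: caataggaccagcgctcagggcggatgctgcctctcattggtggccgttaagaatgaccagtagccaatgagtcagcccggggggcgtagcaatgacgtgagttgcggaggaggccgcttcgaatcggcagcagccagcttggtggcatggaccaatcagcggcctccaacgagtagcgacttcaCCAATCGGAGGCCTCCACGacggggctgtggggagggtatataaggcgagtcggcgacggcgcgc
Atf3: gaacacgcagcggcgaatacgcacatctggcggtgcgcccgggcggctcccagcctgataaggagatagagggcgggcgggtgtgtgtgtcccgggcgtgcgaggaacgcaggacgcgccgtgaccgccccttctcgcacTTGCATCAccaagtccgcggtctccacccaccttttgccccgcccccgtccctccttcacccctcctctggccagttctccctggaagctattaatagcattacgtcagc

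The stress element was found in 7 of the 18 chaperone genes with a promoter in the table, Calr, Canx, Creld2, Dnajc3, Hsp90b1, Hspa5 and Pdia6, and in 35 of all 27025 genes (0.13%). Hsp90b1 holds it on both strands. The 7 genes had log2 fold changes of 0.15, 0.10, 0.23, 0.08, 0.17, 0.12 and 0.18, all above 0 and none called. Hspa5, the sensor chaperone BiP, was at 522, 585, 524 and 494 CPM in air and 623, 559, 569 and 568 CPM in nicotine, where the groups overlapped. In the integrated stress list TGATGNAA was present in 7 of 28 genes against 3.91% of all genes, and in the heat shock list GAANNTTC in 6 of 15 against 7.73%. These matches describe the sequences only. Of the 7 called genes 6 had a promoter in the table, and none of these held the stress element or TGATGNAA in its 250 bases. The rest of each gene was not searched.

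Heat shock proteins were read next. Of 20 measured, none was called and 16 were above 0 (49.6% of all genes were), with a median of 0.13 log2. At an unadjusted p under 0.05 there were 5, all higher (3.06% of all genes were). Hspb1, a small heat shock protein of muscle, was at 163 to 242 CPM in air and 238 to 329.8 CPM in nicotine (0.40 ± 0.12 log2, adjusted p = 0.403). Bag3, its partner in clearing damaged Z-disc proteins, lay between 277 and 332 CPM in air and between 343 and 416 CPM in nicotine, with no overlap (0.23 ± 0.08 log2, adjusted p = 0.55). Hspa8, Dnajb4 and Dnaja1 were 0.23, 0.17 and 0.21 log2 higher. Without nicotine library 2, 11 of 20 members remained above 0 and the median was 0.03, and without air library 5 they were 13 and 0.05.

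Among 16 cardiac stress markers none was called and 12 were above 0 (median 0.17, and 0.27 with 15 above 0 without air library 4). Nppb, the B-type natriuretic peptide released by stretched ventricle, was at 411, 287, 355 and 219 CPM in air and at 518, 687, 467 and 505 CPM in nicotine, without overlap (0.77 ± 0.18 log2, adjusted p = 0.269). Vehicle was at 519 ± 48.6 CPM. Its atrial relative Nppa was level, at 151 ± 65.1 and 150.4 ± 24.6 CPM (-0.01 ± 0.27 log2, adjusted p = 0.999), and air library 4 held the most. The fetal myosin Myh7 (0.09 ± 0.13 log2), skeletal actin Acta1 (-0.19 ± 0.34) and the stretch-responsive Ankrd1 (0.27 ± 0.14) had overlapping groups and adjusted p of 0.82 to 0.977. Flnc, a filamin of the Z-disc, was 0.36 ± 0.14 log2 higher (adjusted p = 0.691).

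Most of the contractile and calcium-handling core was level. Myh6, the main adult mouse myosin, was at 43219 ± 3234 CPM in air and 44300.4 ± 2424 CPM in nicotine, and the calcium pump Atp2a2 at 16270.0 ± 2053 and 16203 ± 1768 CPM, differences of 0.04 ± 0.06 and -0.01 ± 0.10 log2. Atp2a2 in vehicle was 9669.7 ± 1199 CPM. Of 20 sarcomere genes only Myom2 was called, and Tcap was the only member lower at an unadjusted p under 0.05. Of 14 calcium-handling genes none was called, none had an unadjusted p under 0.05, and the median was -0.01 log2.

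Potassium channel genes lay mostly below air. Of 17 potassium channel genes 1 was called, Kcnh2, and 15 had a log2 fold change below 0 (50.4% of all genes did), with a median of -0.15. Kcnq1, the slow delayed rectifier, Kcnj5 and Kcnj3, the 2 subunits of the acetylcholine-gated atrial and nodal channel, were lower at an unadjusted p under 0.05, and Kcnip2, the partner of the transient outward channels, was higher. Kcnq1 was at 42.6, 49.5, 45.1 and 42.5 CPM in air and 41.7, 34.1, 37.1 and 33.4 CPM in nicotine (-0.30 ± 0.08 log2, adjusted p = 0.35), just clear of overlap. Kcnip2 was at 323, 330.4, 294 and 312 CPM against 384, 357, 336 and 346 CPM (0.18 ± 0.06 log2, adjusted p = 0.618). Without air library 2, the median of the list was -0.05 and 11 of 17 lay below 0.

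Sodium and calcium channel genes were read beside them. Of 13 measured none was called and 9 were below 0 (50.4% of all genes were). At an unadjusted p under 0.05 there were 4, all lower (3.28% of all genes were). The median was -0.06 log2, and without air library 2 it was 0.01 with 6 of 13 below 0. Cacna1g, a T-type calcium channel of pacemaker and young myocytes, lay between 37.4 and 40.5 CPM in air and between 25.7 and 36.5 CPM in nicotine (-0.35 ± 0.10 log2, adjusted p = 0.371). The groups did not overlap. Scn4b and Scn4a were at -0.29 and -0.30 log2. The gap junction gene Gja1 was at 0.01 log2.

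**Figure D3:**
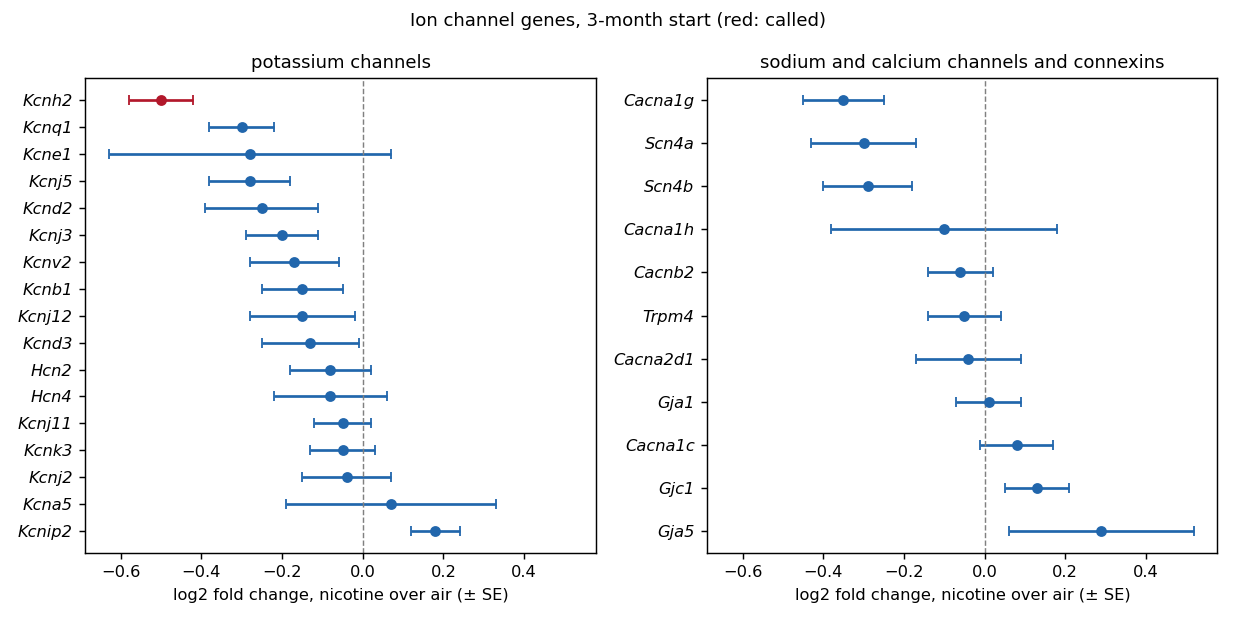
Log2 fold change of nicotine over air with its SE (horizontal axis) for 17 potassium channel genes and 11 of 13 sodium channel, calcium channel and connexin genes, ordered by value. Kcnh2, in red at -0.50, is the only called gene, and 15 of the 17 potassium channel genes lie below 0.

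Several of these channels are also atrial genes, and atrial transcripts varied widely between the libraries. The mean log2 CPM of 9 atrial markers was 3.5, 4.76, 5.02 and 5.64 in air and 4.74, 4.2, 4.42 and 3.08 in nicotine, and 7 of the 9 had a log2 fold change below 0 (median -0.28, or -0.16 to -0.17 without air library 2 or 5 or nicotine library 2, none called). The defining atrial genes were low in all. Myl7, the atrial regulatory light chain, was at 0.680, 9.89, 14.0 and 40.1 CPM in air and 9.55, 3.75, 4.46 and 0 CPM in nicotine. Sln, sarcolipin, was at 0.408 to 12.2 CPM against 0 to 2.33 CPM. Bmp10 had at most 9 counts in any of the 8 libraries. Air library 1, with the fewest atrial transcripts of its group, had the lowest Kcnh2 of that group. Nicotine library 4, with the fewest atrial transcripts of all 8, had the highest Kcnh2 of its group (91.3 CPM). The part of atrial tissue in the channel values was not tested. In bulk tissue fewer cells of a type and less RNA per cell cannot be told apart.

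Cytokine and NF-kB genes were higher in 3 nicotine libraries. Of 24 measured none was called, 23 were above 0 (49.6% of all genes were) and the median was 0.33 log2. The list mean was 3.84, 3.53, 3.58 and 3.41 log2 CPM in air and 4.05, 4.07, 3.34 and 4.22 in nicotine, with library 3 below all air libraries. Il1b, the cytokine interleukin-1 beta, was at 2.72, 2.89, 2.05 and 2.21 CPM in air and 3.46, 3.61, 7.50 and 5.96 CPM in nicotine (1.06 ± 0.25 log2, adjusted p = 0.253). Tnfaip3, the NF-kB inhibitor A20, was at 8.38 to 9.60 against 10.3 to 15.0 CPM (0.49 ± 0.12 log2, adjusted p = 0.269). The groups did not overlap in either gene. Nfkbiz and Csf1 were 0.39 and 0.27 log2 higher.

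Interferon response genes gave the opposite picture of the same library. The list mean was 2.52, 2.4, 2.43 and 2.52 log2 CPM in air and 2.61, 2.51, 2.95 and 2.44 in nicotine, where library 3 stood highest. Of 26 measured 22 were above 0 with a median of 0.19 log2, but without nicotine library 3 only 14 were and the median was 0.03. Oas2, an antiviral synthetase, was at 2.86 to 3.59 CPM in air and 4.36, 4.52, 7.50 and 3.77 CPM in nicotine (0.61 ± 0.24 log2, adjusted p = 0.692), and Xaf1 was 0.42 ± 0.19 log2 higher (adjusted p = 0.773).

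**Figure D4:**
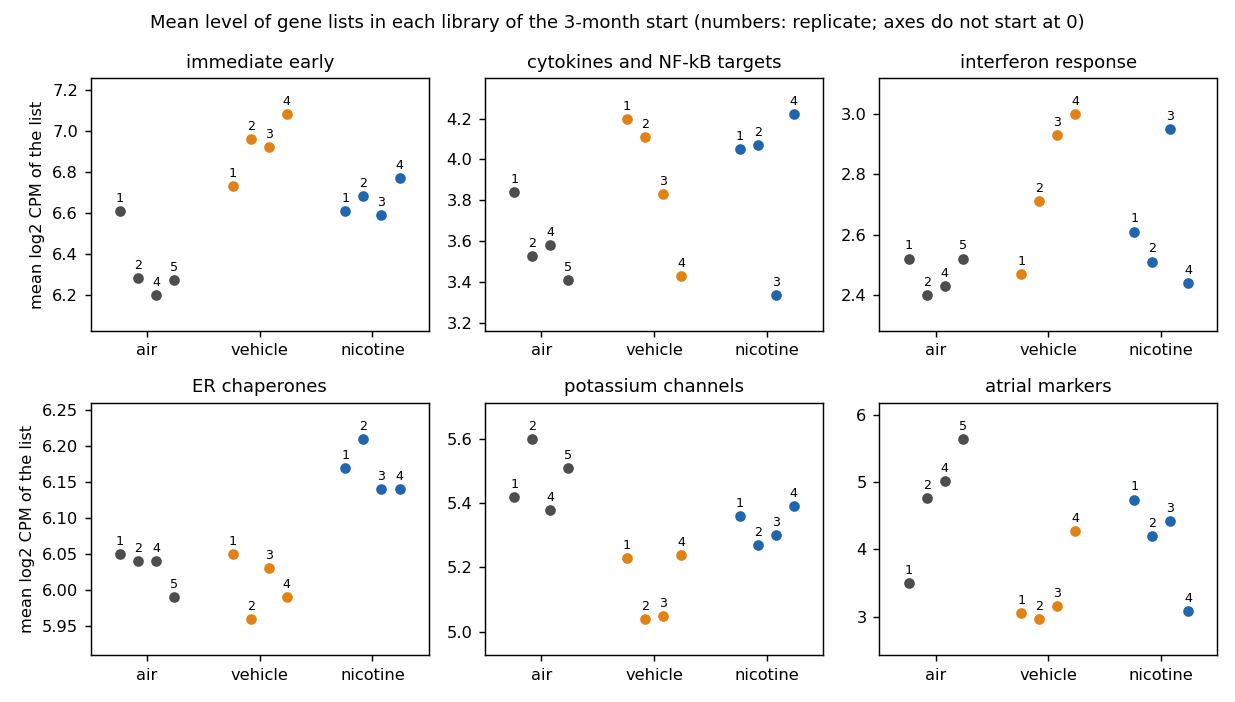
Mean log2 CPM of 6 gene lists (vertical axes, not from 0) in each library of the 3-month start, with the replicate number beside each point. Endoplasmic reticulum chaperones in nicotine (6.14 to 6.21) lie above all air and vehicle libraries, while nicotine library 3 is lowest for cytokines and NF-kB targets (3.34) and, at 2.95, highest of its group for interferon genes.

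Markers of other cells were read as whole lists. All 12 endothelial markers were measured and 10 were above 0 (median 0.12), with Pecam1 at 0.18 ± 0.06 log2 and groups apart (adjusted p = 0.584) and Cdh5 at 0.17 log2. Without air library 5, 7 of the 12 were above 0 (median 0.08), and without nicotine library 1, 8 were (median 0.14). Of 9 fibroblast markers 2 were above 0 (median -0.06), and Lum, a collagen-binding proteoglycan, was at -0.37 ± 0.09 log2 (adjusted p = 0.269). Macrophage markers (8 of 13 above 0, median 0.05) and smooth muscle markers (5 of 9, 0.08) lay near 0. The 6 measured neutrophil markers and the 6 measured adipocyte markers were all above 0, with medians of 0.31 and 0.29, and blood markers were above 0 in 1 of 7 (median -0.18). The neutrophil median was 0.01 without nicotine library 4 and 0.08 without air library 1 or 5, the adipocyte median 0.13 without nicotine library 3, and the blood median 0.01 without air library 5. The summed level of neutrophil markers was 5.65 to 16.8 CPM in air and 9.12 to 21.2 CPM in nicotine, and the neutrophil gene Ly6g had at most 1 count. Nicotine library 4 held the most and library 3 the least of its group, and their part in the cytokine values was not tested.

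Receptors that nicotine or its released transmitters could act on were mostly low. Of 25 listed, 16 had enough counts to be tested and none was called. Transcripts of the neuronal nicotinic subunits were scarce, with at most 3 counts in any of the 8 libraries for Chrna7, 4 for Chrna4 and 0 for Chrna3, Chrna5 and Chrnb4. Chrnb1, a muscle-type nicotinic subunit, was at 7.26 to 8.23 CPM in air and 7.97 to 9.36 CPM in nicotine, and Chrm2, the muscarinic receptor of the heart, at 114 ± 16.3 and 102 ± 15.5 CPM. The alpha-1B adrenergic receptor Adra1b was at 49.4, 53.7, 53.04 and 36.5 CPM in air and 35.1, 29.1, 36.1 and 29.7 CPM in nicotine, so that air library 5 came within 1 CPM of the highest nicotine library (-0.57 ± 0.13 log2, adjusted p = 0.253). The signalling regulators Pde4b, Rgs4 and Rgs2 were 0.23, 0.51 and 0.71 log2 higher at an unadjusted p under 0.05.

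Metabolic, matrix and detoxification genes held no called gene. Fatty acid uptake and oxidation genes had 11 of 31 above 0 and a median of -0.03 log2, and glucose and glycolysis genes 14 of 25 and 0.06, with no member called in either. Ppargc1a, the coactivator of mitochondrial gene programmes, was at 83.8, 89.9, 72.5 and 101 CPM in air and 128, 105, 120.2 and 121 CPM in nicotine, without overlap (0.45 ± 0.14 log2, adjusted p = 0.455), while its usual targets, the 32 nuclear respiratory chain genes, had a median of 0 and none called. Lpl, which frees fatty acids from lipoproteins, was 0.18 ± 0.06 log2 higher (adjusted p = 0.527), and Pfkl, the liver-type phosphofructokinase, -0.20 ± 0.06 log2 (adjusted p = 0.484).

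Of 36 extracellular matrix genes none was called and 21 were above 0 (median 0.01). Col1a1, the main fibrillar collagen, was at 107 ± 22.98 and 108 ± 14.2 CPM, and Col4a1, the basement membrane collagen, at 575 ± 81.1 and 630.4 ± 16.4 CPM (0.02 ± 0.15 and 0.13 ± 0.08 log2). Col4a1 in vehicle was at 411 ± 23.01 CPM. Among 27 NRF2 and antioxidant genes none was called. Srxn1, sulfiredoxin, was at 28.7 to 35.3 CPM in air and 33.9 to 49.1 CPM in nicotine (0.45 ± 0.10 log2, adjusted p = 0.203), and the factor Nfe2l2 itself was 0.19 ± 0.09 log2 higher (adjusted p = 0.782). Of 21 aldehyde and xenobiotic genes none was called, and Cyp1a1, the classic enzyme of smoke exposure, had at most 2 counts in any of the 8 libraries.

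The difference of the nicotine effect between the starting ages was tested in 1 fit of all 23 libraries. Of 15500 genes, 21 (0.135%) differed, 16 more positive at 3 months (0.103%) and 5 more negative (0.0323%). The named genes of positive difference were Abra, Cd93, Phlda1 and Tnfrsf12a, and those of negative difference Rit1, Vwc2, Zc3h6 and Vmac. Abra showed opposite effects, of 0.99 ± 0.23 log2 at 3 months and -1.04 ± 0.24 at 3 weeks, a difference of 2.03 ± 0.33 (adjusted p = 0.0213). At 3 weeks it was at 158, 85.0, 60.3 and 158 CPM in air and 48.2, 63.7, 58.8 and 53.5 CPM in nicotine. Phlda1 differed by 1.81 ± 0.32 (adjusted p = 0.0255), and Tnfrsf12a, the receptor of the cytokine TWEAK, by 1.55 ± 0.28 (adjusted p = 0.0255).

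Cd93 and Col4a1 had their larger effect at the 3-week start, of -0.88 ± 0.12 and -0.87 ± 0.14 log2, where 0.813% of genes were called between nicotine and air. Cd93, an endothelial receptor, was at 173, 164, 143 and 139 CPM in air and 158, 172, 166 and 184 CPM in nicotine of the 3-month start, which overlapped (0.14 ± 0.08 log2), and its difference between ages was 1.02 ± 0.17 (adjusted p = 0.0213). The difference was 1.01 ± 0.19 for Col4a1 (adjusted p = 0.0302). Rit1, a Ras-like GTPase, went the other way, at -0.26 ± 0.10 log2 at 3 months and 0.61 ± 0.10 at 3 weeks (difference -0.87 ± 0.14, adjusted p = 0.0213). Of the genes called at 3 months, Etv5 also differed between ages, by 1.23 ± 0.23 (adjusted p = 0.0255).

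**Figure D5:**
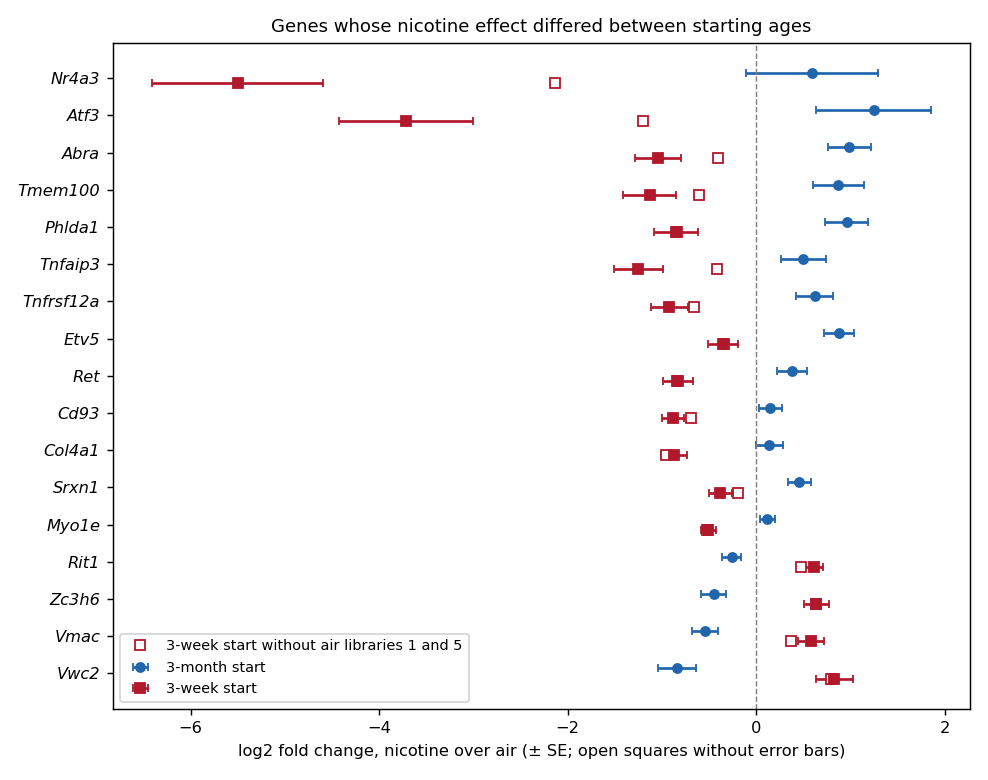
Log2 fold change of nicotine over air (horizontal axis) at the 3-month start (blue circles) and the 3-week start (red squares) with SE, from 1 fit of all 23 libraries, for 17 genes whose effect differed. Open squares show the 3-week value without air libraries 1 and 5, which moves from -5.50 to -2.13 for Nr4a3 and from -3.71 to -1.20 for Atf3.

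Within the 3-week start, air libraries 1 and 5 of that start were at 304 and 178 CPM for Nr4a3, a nuclear receptor, where libraries 2 and 4 were at 19.3 and 4.44 CPM, and without libraries 1 and 5 a single predicted gene, Gm33609, remained called, in a fit with fewer libraries. Some sizes held. Phlda1 was 1.79, Vwc2 -1.65, Zc3h6 -1.10, Etv5 1.21, Ret 1.21, Col4a1 1.09 and Myo1e 0.62 without those libraries. Others shrank. Abra was 1.37 in place of 2.03, with its 3-week effect at -0.40 in place of -1.04. Tnfrsf12a was 1.27 in place of 1.55, Cd93 0.83 in place of 1.02 and Tmem100 1.47 in place of 2. Srxn1 was 0.64 in place of 0.84, Vmac -0.92 in place of -1.12 and Rit1 -0.75 in place of -0.87. The difference of Nr4a3 was 2.71 in place of 6.09, of Atf3 2.44 in place of 4.96 and of Tnfaip3 0.91 in place of 1.76. Of the 7 called genes, 2 had the same sign at 3 weeks, or 3 without 3-week air libraries 1 and 5, and only Etv5 passed the test of the difference (adjusted p = 0.0819 to 0.686 for the others). Of the genes with an unadjusted p under 0.05 at 3 months, 120 of 444 higher genes (27%) and 172 of 477 lower genes (36.1%) kept their sign, against 43.7% of all 14525 genes in both fits. Leaving out those 2 air libraries made these counts 174 and 170. By edgeR the count of 21 became 0 without 3-month air library 5, 3-month nicotine library 2 or 4, or 3-week nicotine library 3 (1311 to 1564 genes at an unadjusted p under 0.05), and 131 and 199 without 3-week air library 2 or 4. It was 24 without 3-month nicotine library 3, between 1 and 10 without any other single library, and 213 by DESeq2 on all libraries.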

How the data were processed

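RNA-seq of left ventricle was compared between 4 nicotine and 4 air libraries of the 3-month start. Reads were trimmed with Trimmomatic 0.36, aligned with STAR 2.5.2b and counted with featureCounts of Subread 1.5.2, and DESeq2 was used, per the submitters' processing notes. The genome build, the annotation and any use of strand were not given in the sources used here. The authors deposited raw counts per gene for 49315 IDs, without rows that name no gene, and a table for this comparison that holds log2 fold changes, p-values and a normalized signal, each count divided by a size factor. Symbols for 49056 IDs and gene lengths came from GENCODE vM21. No coordinates are given but those of promoters from RefSeq.

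Counts were fitted with edgeR 4.0.16 in R 4.3.3 (quasi-likelihood F test, TMM scaling, genes kept by a minimum count of 10, 14526 tested), on the 12 libraries of the 3-month start, without covariates. This set of libraries was chosen with earlier results known (0 calls in all 23 libraries, 3 in the 8 compared), as the biological coefficient of variation was 0.105 in it and 0.179 in all 23. It was also 0.105 in the 8, which leave 6 residual degrees of freedom in place of 9. The SE is the fold change over the square root of F, and p-values were adjusted by Benjamini-Hochberg with a threshold of 0.05. CPM are TMM-scaled. The difference between starting ages was tested in all 23 libraries. The members and gene lists were likewise chosen with earlier results of these data known. The rule for named genes took the 12 higher and 12 lower genes of smallest p, called members of each of 42 lists or the 2 of smallest p, 13 fixed genes, 5 genes of the authors' table and 4 of each sign in the difference between ages. A few genes are not reported here. Replicates of a group differed beyond counting noise. Scripts were tested on simulated data. Alternatives were other library sets, scalings and filters, DESeq2 1.42.0, a gene length offset, a replicate block and leaving out each library.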

Additional observations from a re-analysis of the deposited data

Results flagged for a closer look

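Of 152 groups of 4 libraries examined for single genes, 5 held a library far from the other 3, where chance alone gives about 1 in 20. These were Otud1 in air library 1 (120.3 CPM), Pfkl in air library 2 (270.4 CPM) and in nicotine library 1 (227 CPM), Bag3 in air library 4 (277 CPM) and Lpl in nicotine library 4 (4754 CPM).

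The effect of nicotine against air differed between the starting ages by a test of the difference itself (edgeR, 3-month minus 3-week effect, log2) in 17 genes reported here. The difference was negative for Rit1 (-0.87), Vwc2 (-1.67), Zc3h6 (-1.09) and Vmac (-1.12). It was positive for Abra (2.03), Cd93 (1.02), Phlda1 (1.81), Tnfrsf12a (1.55), Etv5 (1.23), Ret (1.21), Myo1e (0.63), Col4a1 (1.01), Tmem100 (2), Srxn1 (0.84) and Tnfaip3 (1.76). Atf3 (4.96) and Nr4a3 (6.09) had the largest values of the 17, and both had 3-week air libraries 1 and 5 far above libraries 2 and 4.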

How the results depend on the processing

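The 7 calls between nicotine and air became 3 in the 8 compared libraries (2 of them shared), 0 with all 23 libraries, 41 without a filter on low counts (16 higher, 25 lower), 41 and 44 by DESeq2 on 12 and 8 libraries (27 and 31 higher, 14 and 13 lower), and 1 to 17 on leaving out single libraries. Same-numbered air and nicotine libraries did not deviate together (r = 0.07, -0.02 and -0.07), and 0 air libraries correlated best with their own number. Few pairs were compared and vehicle was left out, so these values cannot decide whether same-numbered libraries share more than a number. With a replicate block edgeR called 0 genes (679 at an unadjusted p under 0.05), and 2 with the block and a length offset. Counts stayed within 1.5 times under RLE scaling (7), a minimum count of 50 (10) and a length offset (8). The 21 differences between starting ages became 36 under RLE scaling, 213 by DESeq2, 0 with the replicate block (1437 at an unadjusted p under 0.05), 1 without 3-week air libraries 1 and 5, which was chosen after seeing the data, and 0 to 199 on leaving out single libraries.

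Of 2458 values of 136 gene results under alternatives, 2061 kept direction and side of the threshold, 303 lost a call, 74 gained one and 20 changed sign. The last were all of genes near 0. Over all single libraries left out, Myh7 ranged from -0.01 to 0.21, Acta1 from -0.37 to 0.09, Col1a1 from -0.08 to 0.16, Atp2a2 from -0.06 to 0.06 and Nppa from -0.18 to 0.32. Without single libraries, Myh7 was -0.01 (air 5), Acta1 0.09 (air 4), Col1a1 -0.04 (air 2), -0.07 (air 5) and -0.08 (nicotine 3), Atp2a2 0.06 (air 2), 0.04 (air 5), 0.05 (nicotine 1) and 0.01 (nicotine 2), and Nppa 0.32 (air 4) and 0.10 (nicotine 3). With the replicate block, alone and with the length offset, Col1a1 was -0.10 and -0.10, Atp2a2 0.03 and 0.03, and Nppa 0.07 and 0.09. With 23 libraries Atp2a2 and Nppa were each 0.01, and Nppa was 0.01 with the length offset. The cause was not tested. Of the vehicle-minus-air values, Myom2, Ptgds and Kcnh2 kept their side of the threshold in 15 of 16 alternatives, Fgf6 in 16, Etv5 in 13, Slc38a2 in 12 and Fign in 8. Of nicotine minus vehicle, Fgf6 kept it in 15 and Slc38a2 in 8. Without single libraries the medians of the calcium handling, matrix, fatty acid, receptor, macrophage and smooth muscle lists took either sign, between -0.05 and 0.09. With the low counts of the nicotinic subunits that were not tested, differences in them were not detectable at this depth.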
